A study of Caenorhabditis elegans with 2 samples.

Results

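The genes described here encode proteins of the mitochondrial ribosome and of the respiratory chain with its ATP synthase. They were taken by symbol alone: every protein-coding nuclear gene of the Ensembl WBcel235 annotation of Caenorhabditis elegans that starts with mrpl-, mrps-, nuo-, cox- or atp-. This gave 96 of 19973 genes, of which 41 were mrpl-, 29 mrps-, 15 cox-, 6 nuo- and 5 atp- genes. The data came from ChIP-seq against eGFP-tagged CEH-28, an NK-2 class homeodomain factor, in 2 biological replicates of whole L4 larvae. Both replicates were strain OP241, with the genotype unc-119(ed3) III and the array wgIs241, with the sexes pooled and the age unknown per the labels. All animals carried the tagged transgene and all cell types were sampled together, so signal from any single cell type was not separated. The files were lists of summits with a signal value given by the authors, on a scale that is not stated. They covered each replicate, the pooled replicates and the summits kept by the irreproducible discovery rate threshold (the thresholded list). The lowest thresholded signal was 56.5 at rank 1739, and the pooled summit at rank 1740 had 56.5 too. The thresholded list was thus in effect a cut on pooled signal, and a summit in it need not be high in both replicates. The number of reads behind the lists is unknown.

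Mitochondria carry their own ribosome, which translates the few respiratory chain proteins still encoded in mitochondrial DNA. Its proteins are nuclear-encoded, made in the cytosol and imported, and form a large subunit (the mrpl- genes) and a small subunit (the mrps- genes). The nuo- genes encode parts of complex I, which passes electrons from NADH to ubiquinone. The cox- genes encode subunits and assembly factors of complex IV, cytochrome c oxidase, and the atp- genes subunits of the ATP synthase. These genes are active in nearly all tissues, and in C. elegans many genes of basic metabolism lie in operons, where a downstream gene often has no promoter of its own.

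Sequences are shown for 6 of the 10 summits in members' promoter windows described below, to set the letters under strong and weak peaks beside each other. The other 4, at cox-5B, mrpl-15, atp-3 and cox-4, lie on a chromosome whose sequence is not shown here, so the choice of summits follows position and not letters. Of those 4, mrpl-15 had 1 ATCGAT and the other 3 had neither motif within 50 bp of the summit. They are WBcel235 (ce11) reference sequence, read on the plus strand, with ATCGAT, the 6-base motif common at the summits of these lists, and AAGTG or its reverse complement CACTT, the core of NK-2 sites, in capitals. For cox-5A, mrpl-11 and mrpl-55 the 101 bases centred on the summit are given. For mrpl-30, mrps-28 and mrpl-40, whose windows touch an annotated UTR, the 30 bases around the ATCGAT nearest to the summit are given. These 3 stretches hold ATCGAT by construction and cannot show how the motifs are split between peaks. Within 50 bp of the mrpl-40 summit lay 1 AAGTG or CACTT, outside the stretch shown, and 0 lay there at mrpl-30 and mrps-28.
cox-5A, chrIII:12905154-12905254: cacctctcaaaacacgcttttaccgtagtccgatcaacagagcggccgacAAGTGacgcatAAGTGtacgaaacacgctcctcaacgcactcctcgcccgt
mrpl-55, chrIV:443816-443916: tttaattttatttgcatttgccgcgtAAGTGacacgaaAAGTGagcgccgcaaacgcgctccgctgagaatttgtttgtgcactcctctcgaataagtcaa
mrpl-11, chrIII:8716620-8716720: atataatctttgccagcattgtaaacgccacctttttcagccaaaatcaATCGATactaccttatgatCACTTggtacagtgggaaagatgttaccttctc
mrpl-30, chrIII:2411275-2411304: caaatgctcaaaATCGATCGATtcgaagaa
mrps-28, chrV:19644056-19644085: ttgagttaaattATCGATttttttcaaata
mrpl-40, chrIII:87318-87347: aattgtccgaaaATCGATtagggacgacga

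The promoter windows, from 1000 bp upstream to 500 bp downstream of the gene start, held a thresholded summit in 10 of the 96 genes, 10.4% (exact 95% binomial interval 5.11 to 18.3). Over all protein-coding genes the share was 3.85%. The genes were cox-5A, cox-5B and cox-4, subunits of cytochrome c oxidase, atp-3, a subunit of the stalk of the ATP synthase, mrpl-30, mrpl-15, mrpl-11, mrpl-40 and mrpl-55 of the large ribosomal subunit, and mrps-28 of the small one. The 10 summits lay in 10 separate regions, and 9 of them were upstream of the gene start. The intervals given here cover counting error only and take genes as independent.

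The strongest peak belonged to cox-5A (WBGene00012553; chromosome III, 12905491 to 12906619, plus strand). Its signal was 248 in replicate 1 and 82.3 in replicate 2, and 331 in the pooled list, rank 104 of 20803. The summit lay between genes, 287 bp upstream of the start, and in no other protein-coding gene's window. In the sequence above, 2 copies of AAGTG stand at the summit and ATCGAT is absent, with 1 ATCGAT found within 100 bp.

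Almost as strong was the peak at mrpl-30 (WBGene00021021; chromosome III, 2406310 to 2410975, minus strand). Its signal was 229 in replicate 1 and 77.7 in replicate 2, and 307 in the pooled list, rank 128. In both replicates cox-5A and mrpl-30 were the highest of the 10. The mrpl-30 summit lay 281 bp upstream of the start, inside a coding exon of W04B5.5, a gene on the same strand that ends just upstream of mrpl-30. The order is that of an operon, and it was the only one of the 10 genes in such an order. Here 2 overlapping ATCGAT sites lay within 50 bp of the summit.

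The next highest, cox-5B (chromosome I, 9788725 to 9790050, plus strand), had signals of 99.9 and 39.5 in replicates 1 and 2 and a pooled signal of 141, rank 467. Its summit was the one downstream of a gene start, 17 bp into the 5' UTR of cox-5B itself, with 0 ATCGAT within 100 bp. For mrpl-15 (chromosome I, 1436279 to 1441334) the signals were 54.9 and 36.3, and 91.7 in the pooled list. The mrpl-15 summit lay 987 bp upstream, near the outer edge of the window. Of the 10 genes, cox-5A, mrpl-30, cox-5B and mrpl-15 were the 4 whose windows held one of the highest 1739 summits of each replicate, the length of the thresholded list. Among 652 other genes with a thresholded summit on chromosomes I to V, 67.8% did.

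At mrps-28, mrpl-11 and mrpl-40 the replicates stood far apart. The mrps-28 summit (gene on chromosome V, 19644239 to 19645676) had a signal of 76.0 and rank 741 in replicate 1 but 7.28 and rank 12024 in replicate 2, a ratio of 10.4. At mrpl-11 the signals were 62.0 and 13.5, ranks 977 and 2920, and the summit of the replicate 2 region lay 138 bp from that of the thresholded one. At mrpl-40 they were 49.5 and 10.4, ranks 1365 and 5290. Replicate 1 thus placed all 3 in its highest 1739 and replicate 2 none of them. Over the 10 members the median ratio of replicate 1 to replicate 2, taken from the highest signals in each window, was 2.98, and over 649 other genes with a thresholded summit on chromosomes I to V it was 2.78.

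These 3 genes also shared their summit with a neighbour whose start was closer. The mrps-28 summit lay 183 bp upstream of mrps-28 but 26 bp from the start of Y43F8C.7, and in the window of a snoRNA gene. The mrpl-40 summit was 179 bp upstream of mrpl-40 and 1 bp from the start of F54C4.4, in whose 5' UTR it lay, and it was also in the window of attf-3. The mrpl-11 summit, 974 bp upstream, was 486 bp from the start of B0303.14. The fourth such case was atp-3, whose summit was 153 bp upstream and 96 bp from F27C1.2. For the other 6 the member's own start was the nearest, and no other protein-coding window held the summit. Which gene of a pair a peak belongs to was not tested.

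The last 3 genes lay close to the threshold of the list, whose lowest signal was 56.5. For atp-3 (chromosome I, 5428533 to 5429908) the signal was 32.3 in replicate 1, rank 2635, and 26.5 in replicate 2, rank 848, with a pooled signal of 58.9. It was the one gene of the 10 that replicate 2 ranked among its highest 1739 and replicate 1 did not. For mrpl-55 (chromosome IV, 443985 to 444786) the signals were 39.7 and 15.6, ranks 1920 and 2172, and 58.6 in the pooled list, with the summit 119 bp upstream. Alone of the 10, mrpl-55 was among the highest 1739 of neither replicate. For cox-4 (chromosome I, 13658171 to 13659128) the signals were 42.4 and 14.0, and 58.3 in the pooled list, with the summit 386 bp upstream in an intron of an annotated pseudogene.

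**Figure D1:**
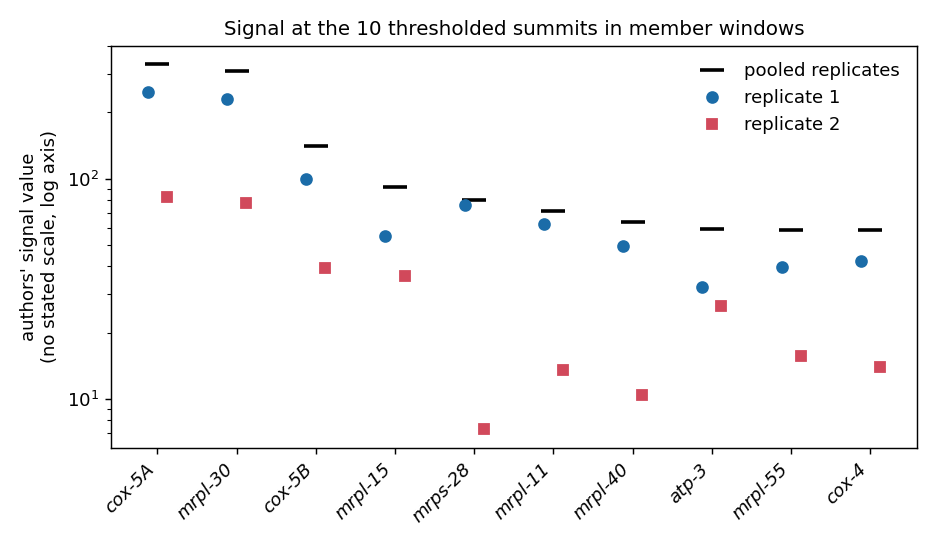
Signal value at the thresholded summit of each of the 10 genes (log axis, no stated scale), for replicate 1 (circles), replicate 2 (squares) and the pooled replicates (bars), with genes in order of pooled signal. Replicate 1 was above replicate 2 at each of the 10 summits, and the gap was widest at mrps-28 (76.0 against 7.28).

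Of the complex IV genes, the 7 for subunits of the enzyme itself (cox-4, cox-5A, cox-5B, cox-6A, cox-6B, cox-6C and cox-7C) had a thresholded summit in 3 cases and any pooled summit in 5, where over all protein-coding genes the shares were 3.85% and 34.1%. The 8 assembly genes (cox-10, cox-11, cox-14, cox-15, cox-16, cox-17, cox-18 and cox-19), which include factors for heme and copper insertion, had 0 thresholded and 2 pooled (cox-11 and cox-17), and a thresholded summit lay outside the window of cox-10, 1214 bp upstream. With so few genes, 0 and 2 of 8 are near those background shares. The counts used the outermost annotated start of each gene. With any annotated transcript start counted, cox-6B also had a thresholded summit. This split by role was made after the values were seen and was not tested. Just below the threshold stood cox-6C, with signals of 43.1 in replicate 1 and 6.87 in replicate 2 and a pooled signal of 48.8 at rank 2166. Its summit was nearer to the start of grld-1. For cox-6A the signals were 19.7 and 16.4, and 34.7 in the pooled list, 381 bp upstream.

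Of the 70 ribosomal genes, 6 had a thresholded summit (8.57%) and 33 any pooled summit (47.1%), with other genes weighted to their chromosomes at 4.83% and 37.7%. These combined shares carry no interval and were not tested against other genes. By subunit, thresholded summits were found at 5 of 41 mrpl- genes (12.2%, interval 4.08 to 26.2) and 1 of 29 mrps- genes (3.45%, interval 0.0873 to 17.8). In the relaxed pooled list, which holds background by design, the order of the families was the other way round, with 39.0% of mrpl- genes and 58.6% of mrps- genes holding any summit, and the intervals overlapped in both lists (24.2 to 55.5 and 38.9 to 76.5 in the pooled one). The pooled share of mrpl- genes and the thresholded share of mrps- genes were near those over all genes, 34.1% and 3.85%. The highest mrps- genes below the threshold were mrps-18A (36.4 in replicate 1, 7.86 in replicate 2, 45.2 pooled) and mrps-18B (21.5, 20.4 and 37.9). The mrps-18B summit lay 213 bp downstream of the start in a coding exon. The highest mrpl- genes below the threshold were mrpl-37 (26.1, 11.2 and 36.6), nearer to lin-38, and mrpl-45 (13.6, 10.7 and 27.5), nearer to Y119D3B.12.

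Of the 26 nuo-, cox- and atp- genes together, 4 had a thresholded summit (15.4%) and 16 any pooled summit (61.5%), with other genes weighted to their chromosomes at 4.99% and 37.8%. No interval was computed for these combined shares, and their difference from other genes was not tested. Of the complex I genes, 0 of 6 had a thresholded summit, which by the exact interval allows a share of up to 45.9%. Any pooled summit was found in 4 of them, and the highest was at nuo-1, which encodes the NADH-binding subunit, with 33.1 in replicate 1, 30.5 in the pooled list and no region at that position in replicate 2, which had a summit of 17.4 at rank 1776 elsewhere in the window. The nuo-1 summit also lay in the window of the cytosolic ribosomal protein gene rpl-36.A. The second was nuo-3, with 14.9 in replicate 1 and 16.8 in the pooled list, and again no region at the summit in replicate 2, whose highest summit elsewhere in the window was 13.8 at rank 2818. All 5 atp- genes had some pooled summit, of which atp-3 passed the threshold. At atp-1, the alpha subunit of the catalytic head, the signals were 26.7 and 14.3, and 40.1 in the pooled list, 43 bp upstream. At atp-5 they were 22.8 in replicate 1 and 27.2 in the pooled list, 18 bp from the start of lmtr-3, with no replicate 2 region there but one of 6.86 elsewhere in the window.

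In all, 49 of the 96 windows held a pooled summit (51.0%, interval 40.6 to 61.4), against 34.1% over all protein-coding genes. The 39 without a thresholded summit had pooled signals from 12.8 to 48.8, with a median of 22.6, at ranks from 2166 to 20288. Over the 49, the median of the highest signal in the window was 26.2, and over 5857 other genes with a pooled summit on chromosomes I to V it was 22.2. Both replicates had a summit in the window in 37 of the 49 (75.5%, interval 61.1 to 86.7). The share in the 5857 other genes was 65.7%, inside that interval. Across these 37 genes the replicate signals had a Spearman correlation of 0.511, and across 3848 other genes one of 0.594, given as descriptions over genes whose replicates share a control per the deposited lineage notes. No summit of the pooled list or of either replicate lay in the windows of 25 members (26.0%), among them 15 mrpl-, 6 mrps-, 4 cox- and 0 nuo- or atp- genes. The 4 cox- genes include cox-6B, which had a thresholded summit near another of its annotated transcript starts. Other genes on chromosomes I to V, not weighted by chromosome, had none in 47.7% of cases.

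**Figure D2:**
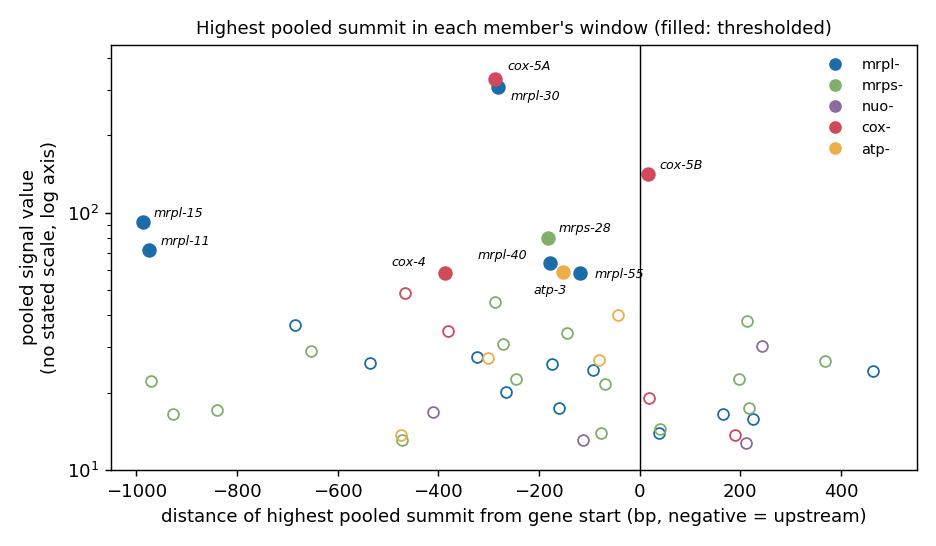
Highest pooled summit in the window of each of the 49 genes that had one, by distance from the gene start (bp, negative upstream) and pooled signal value (log axis, no stated scale). Filled points are thresholded and named, and colours give the gene family; cox-5A and mrpl-30 are highest at 331 and 307, at 287 and 281 bp upstream.

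The members' peaks lay mostly upstream of the gene start. The median position of the thresholded summits was at -232 bp from the start, and for 652 other genes with one on chromosomes I to V it was at -236 bp. Upstream of the start lay 90.0% of the former and 78.8% of the latter. In the pooled list 71.4% and 73.4% lay upstream. Within 100 to 400 bp upstream lay 7 of the 10, a range for which other genes were not counted. A further 4 members had a thresholded summit within 2000 bp of the start but outside the window, namely cox-10 (1214 bp upstream, signal 116), mrpl-51 (1270 bp downstream, 204), mrps-25 (1447 bp downstream, 78.0) and mrps-33 (581 bp downstream, 66.3). Counting those inside the window too, 14.6% of members had one within 2000 bp of the start. Among other genes on chromosomes I to V, not weighted by chromosome, 6.56% did.

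The members were unevenly spread over chromosomes, and so were the peaks. Chromosome III held 29, chromosome I 23, chromosomes II and IV 15 each and chromosome V 14, with none on X. Thresholded summits were found at 4 of 23 members on chromosome I (17.4%, other genes there 6.69%), 4 of 29 on III (13.8%, other genes 6.93%), 1 of 15 on IV (6.67%, other genes 3.31%) and 1 of 14 on V (7.14%, other genes 1.49%). On II there were 0 of 15, which allows up to 21.8% by the exact interval, with other genes at 2.85%. The member share was above that of other genes on 4 of the 5 chromosomes, but its interval held the other genes' share on each of the 5.

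With other genes weighted to the chromosomes of the members, their share was 4.88%, which would make 4.68 genes of 96 where 10 were found, a difference of 5.54 percentage points. That share lay below the lower bound of the members' interval, 5.11, and weighting also by outer and middle parts of the chromosome gave 4.80%. For any pooled summit the weighted share was 37.8%, below the interval of 40.6 to 61.4. Weighting by chromosome together with gene neighbourhood gave 5.79% and 41.7%, and together with the number of ATCGAT sites 6.89% and 44.8%, and all 4 of these values lay inside the members' intervals. The highest 1739 summits of replicate 1 alone fell in the windows of 9 members (9.38%, interval 4.38 to 17.1, others 4.85%) and those of replicate 2 alone in 6 (6.25%, interval 2.33 to 13.1, others 4.77%), so each of these intervals held the share of other genes, and the difference was 4.52 points in replicate 1 and 1.48 in replicate 2. No test of the list as a whole was made.

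**Figure D3:**
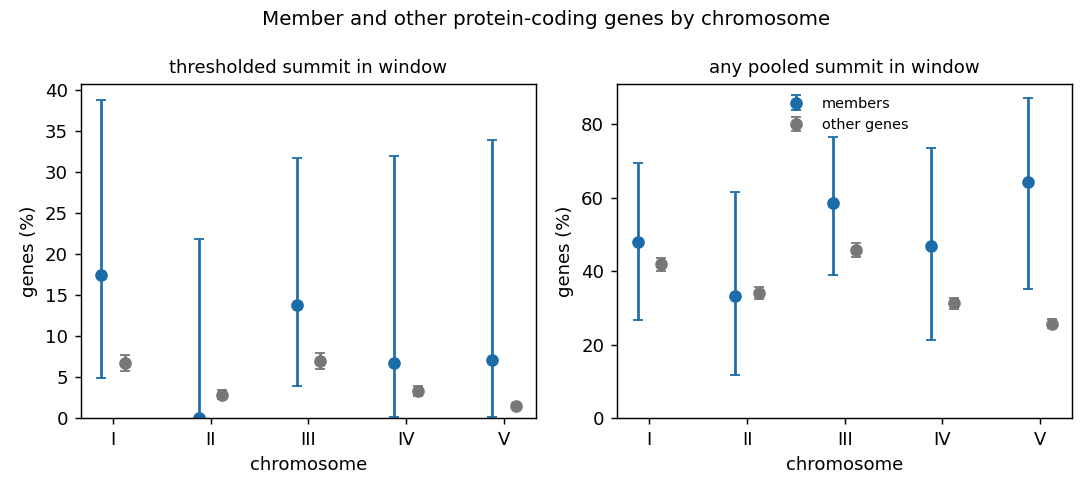
Share of genes with a thresholded summit (left) and with any pooled summit (right) in the promoter window, by chromosome, for the 96 members and for other protein-coding genes. Bars are exact 95% binomial intervals; members stood at 17.4% on I and 13.8% on III, and at 0% on II, and their intervals are wide.

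More of the members than of other genes lay close behind or beside another gene. A start within 500 bp downstream of the end of a gene on the same strand, the order found in operons, was seen in 37.5% of members and 19.3% of other genes on chromosomes I to V. A divergent protein-coding start within 1000 bp upstream, without operon-like order, was seen in 40.6% of all members and 19.2% of all other genes there. Thresholded summits fell at 1 of the 36 members in operon-like order (2.78%, other genes 3.65%) and at 3 of the 39 with a divergent neighbour (7.69%, other genes 6.61%). Of the 21 members with neither, 6 had one (28.6%, interval 11.3 to 52.2), against 2.97% of such other genes. These 6 were cox-5A, cox-5B, cox-4, mrpl-15, mrpl-11 and mrpl-55. The shares of other genes in this paragraph were not weighted by chromosome. All of the 6 but mrpl-55 lay on chromosomes I or III, where 6.69% and 6.93% of other genes of any class had a thresholded summit. Operons were inferred here from gene order only, and the class with neither was formed after the values were seen.

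The windows of members also held more ATCGAT. At least 1 site, which reads the same on both strands, was found in 64.6% of member windows, in 42.3% of other windows on chromosomes I to V and in 40.9% of all promoter windows of this length. Among windows with 0 sites, 2 of 34 members had a thresholded summit (5.88%) against 0.890% of other genes, and with 1 site 5 of 32 (15.6%) against 4.14%. With 2 sites it was 1 of 21 (4.76%) against 8.57%, and with 3 or more 2 of 9 (22.2%) against 27.6%. The member share was thus the higher one at 0 and 1 sites and the lower one above that, and its intervals were wide (0.720 to 19.7, 5.28 to 32.8, 0.120 to 23.8 and 2.81 to 60.0). Other genes were not weighted by chromosome in these comparisons.

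**Figure D4:**
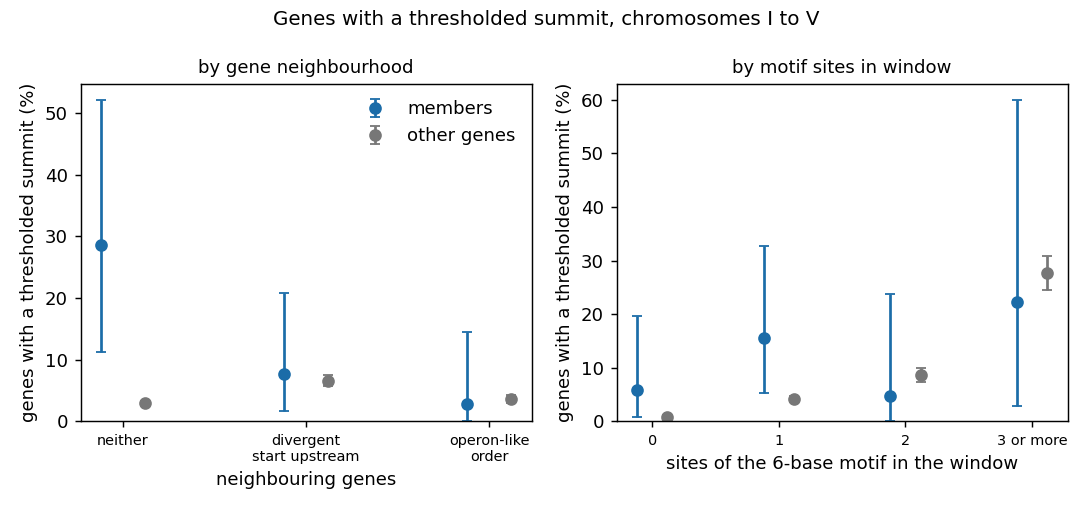
Share of genes with a thresholded summit, for members and other protein-coding genes on chromosomes I to V, by neighbouring genes (left) and by number of ATCGAT sites in the window (right), with exact 95% binomial intervals. The largest gap is at genes with neither an operon-like order nor a divergent start, at 28.6% against 2.97%, with other genes not weighted by chromosome.

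At the summits themselves, 6 of 10 had ATCGAT within 100 bp (60.0%, interval 26.2 to 87.8), and 72.0% of 550 other thresholded summits in promoter windows on chromosomes I to V (71.7% when weighted to the members' chromosomes). In 201 bp centred 150 bp upstream of every protein-coding start, 7.92% had it. The 4 member summits without it were those of cox-5B, atp-3, mrpl-55 and cox-4. The full NK-2 site, TCAAGTG or TTAAGTG on either strand, lay within 100 bp of 0 of the 10, and in 4.36% of the upstream windows. The shorter core, AAGTG or CACTT, occurred at least 2 times within 50 bp at cox-5A and mrpl-55, as the sequences above show. Among the 550 other summits 2.55% had as many, and in 101 bp upstream windows of all genes 2.54%. The core was looked for after the sequences had been seen, and its count is a description of letters only.

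Other mitochondrial genes were taken from 4 pathway lists. Of their 63 genes 6 had a thresholded summit (9.52%, other genes weighted to their chromosomes 4.80%) and 41 any pooled summit (65.1%, other genes 37.1%). The shares of these lists carry no interval, and no difference from other genes was tested. Of 9 genes of the mitochondrial genome and its translation 2 did, polg-1, the mitochondrial DNA polymerase (103 in replicate 1, 33.1 in replicate 2), and tufm-1, the mitochondrial elongation factor Tu (50.1 and 10.8). The polg-1 window held 7 ATCGAT sites. Of 20 other respiratory chain genes 1 did, the ATP synthase subunit gene asg-2 (65.9 and 12.1), and of 19 genes of import, assembly and the inner membrane 1 did, the prohibitin gene phb-1 (36.6 and 32.0). Of 15 genes of the citrate cycle and pyruvate dehydrogenase 2 did, idhb-1, a subunit of isocitrate dehydrogenase (70.2 and 19.9), and sucl-1, a subunit of succinyl-CoA ligase (49.4 and 13.9). These genes were on the X chromosome in 3 of the 6 cases (asg-2, idhb-1 and sucl-1), where the main list has no member.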

How the data were processed

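Summit lists on ce11 were used as the authors deposited them, for each of the 2 replicates, for the pooled replicates and after thresholding. The signal per summit is the authors' value in a narrowPeak list, as the deposited lineage notes name it, and has no stated scale. Which aligner and which peak caller made them is not given in the sources used here. The lists hold no read counts, so depth is unknown. Lists on ce10 were not used, as no annotation of that build was at hand.

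Genes came from Ensembl release 115 (WBcel235, the ce11 assembly). A replicate's value at a summit is that of its highest region over that position. Where intervals of shares are given, they are exact 95% binomial intervals. Other genes were weighted to the members' chromosomes where this is stated. Window counting was checked on simulated summits. The members and gene lists were chosen with earlier results of these data known. Named are all genes with a thresholded summit, the 2 next highest per family, pathway genes with a thresholded summit and genes sharing a member's summit. The 4 genes with a thresholded summit just outside the window, the split of the cox- genes by role and the AAGTG counts were added after values were seen. Python 3.11.15, numpy 2.4.6, pandas 2.3.3, scipy 1.17.1 and matplotlib 3.10.9 were used.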

Additional observations from a re-analysis of the deposited data

How the results depend on the processing

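Of 23 alternative values, 22 stayed within the interval set around the main value. For shares this was the exact 95% interval. For the 9 differences it was the interval of the members' share, shifted down by the main share of other genes. These intervals are wide (5.11 to 18.3 for the share with a thresholded summit), so staying inside them does not show that a value is stable. Direction was checked only for the 9 differences from other genes, and none reversed. The same 9 settings also gave the shares of members, so these values are not independent. When only thresholded peaks with a signal of at least the list median were kept, the share of members with a thresholded summit moved to 4.17% (4 genes: cox-5A, mrpl-30, cox-5B and mrpl-15), with other genes at 1.94%. That list is shorter by construction. With 1 replicate left out, the share of members ranged from 6.25 to 9.38%. Its difference from other genes ranged from 1.48 to 4.52 percentage points, where the main value was 5.54. The share with any summit of the relaxed list was 53.1% in replicate 1 (other genes 40.2%) and 58.3% in replicate 2 (other genes 41.6%). Those lists hold 23410 and 26414 summits, more than the 20803 of the pooled list. Replicate 2 alone kept 5 of the 10 genes and added mrps-18B, and replicate 1 alone kept 8 and added cox-6C. With 500 bp either side of the start, mrpl-11 and mrpl-15 were lost. With any annotated transcript start counted, cox-6B was gained and the share was 11.5% against 5.53%. With each summit given to its nearest start within 2000 bp, atp-3, mrpl-11 and mrps-28 were lost, mrpl-51 and mrps-25 were gained, and the share was 9.38% against 5.61%. Without genes in operon-like order it was 15.0% against 5.46%, and without those with a divergent start upstream 12.3% against 3.99%. ATCGAT lay within 50 bp of 5 and within 200 bp of 7 of the 10 member summits. No paired analysis was possible because both replicates belong to the same group. With unknown depth, absence of a summit does not show absence of binding.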
